A study of Mus musculus with 24 samples.

Results

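EO771 is a mouse mammary carcinoma cell line, first grown out of a spontaneous tumour of a C57BL/6 mouse. The question taken up here was whether the difference in gene expression that goes with podoplanin (PDPN), a surface glycoprotein, depended on the chemokine receptor CCR7. It was read as a difference of differences on the log2 scale. The difference between CCR7-PDPN and CCR7 cells of batch 1 was taken first, and the difference between X2-PDPN and X2 cells of batch 2 was subtracted from it. The contrast rested on 16 of the 24 libraries of the series, 4 in each of these groups, and on the 13915 genes present in both deposited tables, of which 13690 had enough counts to be tested. Below, this contrast is called the interaction. A negative value means that the PDPN difference was lower in CCR7 cells than in X2 cells, whether by a smaller rise, a larger fall or a turn from rise to fall.

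X2 cells carried the retroviral control vector pLNCX2, and CCR7 cells the same vector with mouse Ccr7 complementary DNA. All cells carried the reporter tdTomato and were grown in culture without treatment. CCR7-PDPN and X2-PDPN cells were enriched by flow sorting for PDPN that had appeared on its own in a part of each line, and CCR7 cells were the PDPN-negative sort. By the paper's flow cytometry this part was far smaller in X2 cells than in CCR7 cells, and the X2-PDPN sort was less pure. The paper describes no PDPN-negative sort for X2 cells. These features of the sorts cannot be told apart from CCR7 in the interaction. No clones were picked. The 4 libraries of a group were technical replicates of 1 sorted population, so that p-values measured the spread between libraries and not between separately derived lines. CCR7 cells were sequenced in batch 1 alone and X2-PDPN cells in batch 2 alone. CCR7 status and batch therefore cannot be told apart in the interaction, except through X2 and CCR7-PDPN cells, which were sequenced in both.

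CCR7 is the receptor that guides dendritic cells and lymphocytes towards lymph nodes along gradients of CCL19 and CCL21, and tumour cells can use it in the same way. PDPN is a small mucin-like protein of lymphatic endothelium, fibroblasts and invading tumour fronts that binds the platelet receptor CLEC-2 and links to the actin cytoskeleton through ezrin and moesin. An interaction between such a pair of traits is measured gene by gene, as the departure from a PDPN difference that is of equal size in both backgrounds.

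Library totals of the 16 libraries and of the other 8 lay between 22275468 and 35721027 counts. The epithelial keratin gene Krt8 had 220 to 302 CPM (counts scaled to the size of the library) in every group, and Vim and Twist1, genes of mesenchymal tumour cells, had 2200 to 3040 CPM and 49.8 to 65.9 CPM. One library stood apart. Over the 9151 genes whose log2 CPM averaged 3 or more, replicate 1 of the CCR7 cells deviated from the other 3 with an SD of 0.173 on the log2 scale. The next was replicate 2 of the same cells at 0.119, and outside CCR7 cells the highest value was 0.0852. Since CCR7 cells enter the interaction, some counts are given below without replicate 1 as well.

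The genes that the cells had been sorted or transduced for came first. Ccr7 lay between 2719 and 3133 CPM in the CCR7 and CCR7-PDPN libraries of batch 1 and between 0.177 and 0.952 CPM in the X2 and X2-PDPN libraries. Pdpn lay between 23.6 and 27.0 CPM in both sorted PDPN groups. It stood at 0.301 to 0.620 CPM in CCR7 cells, the PDPN-negative sort, and at 0.0741 to 0.264 CPM in X2 cells. The CCR7 and X2 libraries held 2 to 20 counts of it, and its interaction of -1.34 is a description only, since the sort chose this gene.

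The PDPN difference was not of equal size in both backgrounds. With edgeR's quasi-likelihood test, a Benjamini-Hochberg p under 0.05 and a log2 value beyond 1 in either direction, the interaction was higher for 132 genes (0.964% of those tested) and lower for 613 genes (4.48%), which makes 745 genes or 5.44%. The direction was thus uneven, with more genes on the lower side, while the median interaction of all genes was -0.003. By the adjusted p alone the sides were even, with 2782 higher and 2803 lower. Of the 745 genes, 218 averaged a log2 CPM of 1 or more, and 183 of these 218 were lower. On the linear CPM scale the sign was kept for 131 of the 132 and 605 of the 613. Without replicate 1 of the CCR7 cells 143 genes were higher and 625 lower, and 114 and 541 of these were shared with the full set.

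The PDPN differences behind the contrast ran in opposite balance. In CCR7 cells 104 genes (0.76%) were higher with PDPN and 366 (2.67%) lower. Without replicate 1 of the CCR7 cells these were 130 and 384. In X2 cells 497 genes (3.63%) were higher and 232 (1.69%) lower. Of the 613 genes with a lower interaction, 259 were called higher with PDPN in X2 cells alone, with a median rise of 1.53 there and of -0.14 in CCR7 cells. A further 152 were called lower with PDPN in CCR7 cells alone, with a median of -1.63 there and 0.15 in X2 cells. In 26 genes the call turned from higher in X2 cells to lower in CCR7 cells, 15 genes were called the same way in both backgrounds with a lower value in CCR7 cells, and 161 were called in neither. Of the 132 genes with a higher interaction, 33 were called higher in CCR7 cells alone, 42 lower in X2 cells alone, 10 lower in both with a smaller fall in CCR7 cells, 2 higher in both, 2 higher in CCR7 cells and lower in X2 cells, and 43 in neither. A call in one background and none in the other was not taken as a difference by itself, since the test was made on the interaction.

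**Figure D1:**
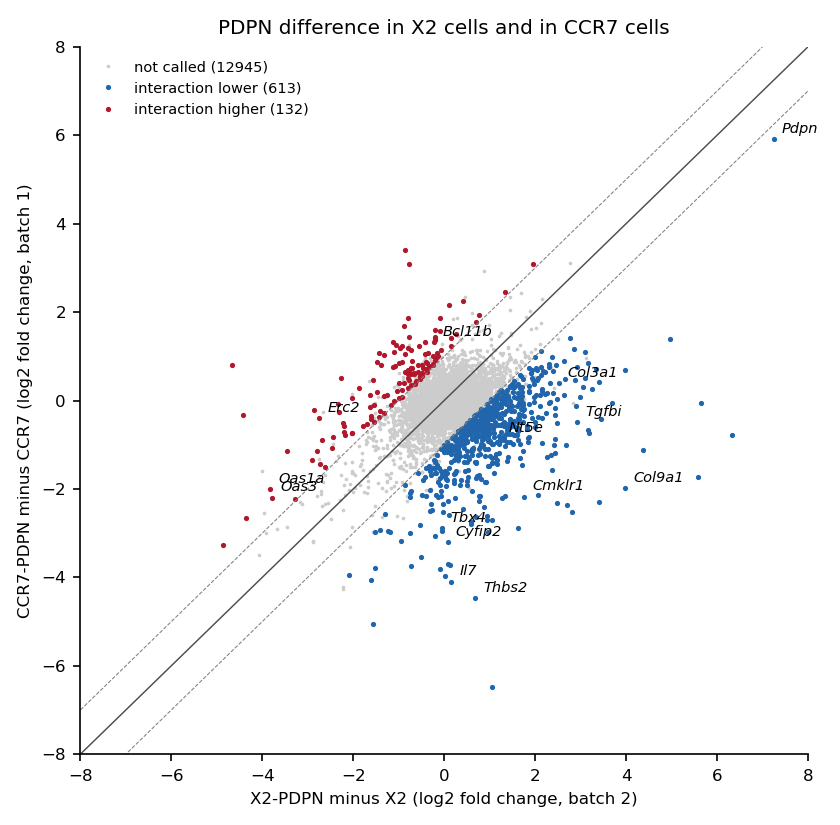
PDPN difference of each of the 13690 genes in X2 cells (horizontal axis, log2 fold change) and in CCR7 cells (vertical axis, log2 fold change), with the 613 genes of lower interaction in blue, the 132 of higher interaction in red and the other genes in grey. The solid line marks equal differences and the dashed lines a log2 distance of 1 from it, and the blue points spread to the right of and below the line, with Col9a1 at 3.98 and -1.99.

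The contrast could be read from either side. As written it compares PDPN differences, and rearranged it compares CCR7 differences, namely CCR7-PDPN minus X2-PDPN in batch 2 less CCR7 minus X2 in batch 1. The rearranged form, in which each subtraction was again made within a batch, had 123 genes higher and 564 lower. Of the 745 genes, 742 had the same sign in both forms and 529 were called in both, 84 higher and 445 lower. Both forms use the same CCR7 and X2-PDPN libraries and so are not independent. Among the 613 lower genes the median of CCR7 minus X2 was 0.25 in batch 1, while that of CCR7-PDPN minus X2-PDPN was -1.11 in batch 2. By mean log2 CPM, 326 of the 613 lay more than 1 below X2-PDPN in CCR7-PDPN cells, against 101 that lay more than 1 above X2 in CCR7 cells. For the 259 genes higher with PDPN in X2 cells alone, CCR7-PDPN cells differed from X2 cells by a median of 0.15 in batch 1 and 0.30 in batch 2.

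The 2 forms differ by exactly the batch check, which is CCR7-PDPN minus X2 in batch 1 less the same in batch 2. In this check 0 genes (0%) were called by edgeR, 293 genes (2.14%) had an unadjusted p under 0.05, the smallest adjusted p was 0.9999, and DESeq2 called 0 genes as well. The 95th percentile of its absolute log2 value was 0.578, against 1.21 for the interaction. It still exceeded 1 in 185 genes, and among the 745 interaction genes its 95th percentile was 1.23, so that the size of single low genes was uncertain. Prelp, Sel1l3 and E130218I03Rik had the largest values among these genes, at 2.82, -2.72 and -2.43, with group means under 0.6 CPM in at least 3 of the 4 groups. The call of Sel1l3 was lost without replicate 1 or replicate 3 of the CCR7 cells (adjusted p = 0.051 and 0.057). In E130218I03Rik the rearranged form was -0.25 against an interaction of -2.69.

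What the batch check covered may have been narrower than the labels show. Over the 9151 genes, same-numbered libraries of the 2 batches deviated together from their group means, with correlations of 0.103 to 0.438 for X2 and 0.119 to 0.439 for CCR7-PDPN in all 8 pairs. Differently numbered libraries had -0.229 to 0.127. The labels do not say whether a number stands for the same RNA in both batches. If it does, the check speaks to library preparation and sequencing and not to separate cultures, and with the number as a block it called 0 genes, 1 gene at an adjusted p under 0.05 and 603 (4.4%) at an unadjusted p under 0.05. X2 cells alone differed between batches in 6 called genes and CCR7-PDPN cells in 15.

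**Figure D2:**
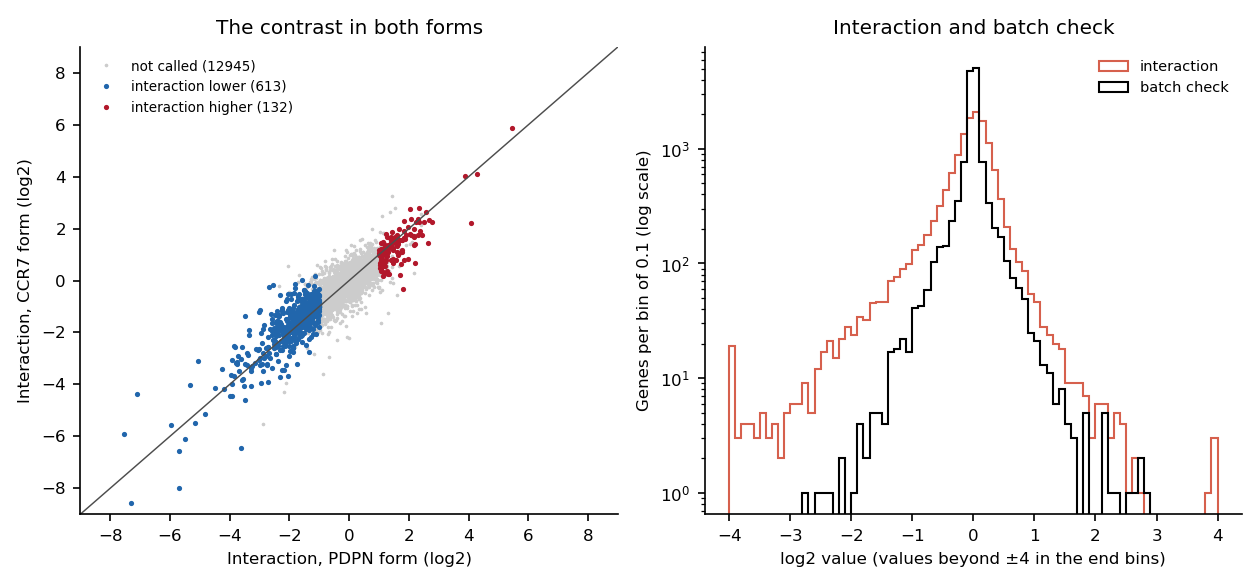
Left, the interaction from PDPN differences (horizontal axis, log2) and the same contrast from CCR7 differences (vertical axis, log2), with 742 of the 745 called genes on the same side of 0 in both. Right, number of genes (log scale) by log2 value for the interaction (red) and the batch check (black), whose 95th percentiles of absolute value were 1.21 and 0.578.

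Col9a1 (ENSMUSG00000026147, GRCm38 chromosome 1, 24177610 to 24252684), which encodes a chain of the cartilage collagen IX, had the largest interaction of the genes named for a turn in direction. Its 4 libraries of X2 cells had 0.926, 0.707, 0.686 and 0.726 CPM, and those of X2-PDPN cells had 12.4, 12.3, 11.8 and 11.5 CPM. In CCR7 cells it had 5.396, 4.75, 4.55 and 4.16 CPM, and in CCR7-PDPN cells 0.950, 1.32, 1.19 and 1.32 CPM. The groups did not overlap in either background, and the order with PDPN was turned, with PDPN cells high among X2 cells and low among CCR7 cells. The log2 difference was 3.98 in X2 cells (standard error 0.15) and -1.99 in CCR7 cells (standard error 0.15), and the interaction was -5.96 (standard error 0.21, adjusted p = 4.0e-23). In the other batch X2 cells had 0.701 to 1.33 CPM and CCR7-PDPN cells 0.641 to 1.6 CPM, and the rearranged form gave -5.58.

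Tbx4 (ENSMUSG00000000094, chromosome 11, 85886422 to 85916097), a T-box transcription factor of hindlimb and lung mesenchyme, fell with PDPN in CCR7 cells alone. It had 5.56, 6.15, 5.79 and 5.31 CPM in X2 cells and 5.71, 5.46, 6.00 and 4.87 CPM in X2-PDPN cells, which overlapped. In CCR7 cells it had 1.46, 1.26, 1.11 and 1.49 CPM, and in CCR7-PDPN cells 0.158, 0.225, 0.141 and 0.170 CPM. X2 cells of batch 1 had 5.53 to 6.37 CPM. CCR7 cells, without PDPN, were thus below X2 cells, and CCR7-PDPN cells lay below CCR7 cells in every library. The interaction was -2.85 (standard error 0.26, adjusted p = 1.9e-11), from -2.89 in CCR7 cells and -0.05 in X2 cells. Of the 7 T-box genes tested it was the 1 called, and the median interaction of the 7 was -0.15.

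Genes that fell with PDPN in CCR7 cells alone included matrix, cytokine and actin regulators. Thbs2, which encodes the matrix protein thrombospondin 2, had 2.45 to 2.69 CPM in X2, 3.91 to 4.17 in X2-PDPN, 2.35 to 2.97 in CCR7 cells and 0.0351 to 0.190 in CCR7-PDPN cells. The groups with and without PDPN did not overlap in either background, and the interaction was -5.16 (standard error 0.27). Il7, the cytokine that keeps naive lymphocytes alive, had 2.09 to 3.20 CPM across the X2, X2-PDPN and CCR7 libraries and 0.0678 to 0.211 in CCR7-PDPN libraries. One group of 4 thus stood apart from the rest, and the interaction was -4.25 (standard error 0.27), with a rearranged form of -3.42. Cyfip2, a subunit of the WAVE complex that starts actin branches, had 1.17 to 1.77 CPM in CCR7-PDPN cells against 12.7 to 16.1 in CCR7 cells and 8.51 to 10.4 in X2 and X2-PDPN cells together. Its interaction was -3.29 (standard error 0.14). The same class held Nsd1, a histone H3 lysine 36 methyltransferase (-3.27), Aig1 (-2.90) and Hivep3, a zinc finger protein (-2.50).

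Tgfbi, a matrix protein induced by TGF-beta, had the largest interaction among genes that rose with PDPN in X2 cells alone, were called in both forms, averaged a log2 CPM of 1 or more and had over 3 counts in some library of each group. It had 103 to 111 CPM in X2-PDPN cells, 13.4 to 15.1 in X2, 15.8 to 16.3 in CCR7 cells and 9.97 to 12.2 in CCR7-PDPN cells. X2-PDPN cells stood far above the other groups, and CCR7-PDPN cells lay below CCR7 cells in every library. The interaction was -3.41 (standard error 0.07, adjusted p = 9.0e-30) and the rearranged form -3.25. Pcbp3, an RNA-binding protein, followed within the same limits at -2.97, then Gm2381 at -2.69 and Slit1, an axon guidance ligand, at -2.44.

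Turns in direction like that of Col9a1 were seen in Cmklr1, the receptor of the chemoattractant chemerin. It had 1.44 to 1.75 CPM in X2, 5.16 to 5.57 in X2-PDPN, 4.22 to 6.28 in CCR7 cells and 0.739 to 1.3 in CCR7-PDPN cells, with an interaction of -3.93 (standard error 0.20). X2 and CCR7-PDPN cells were low and the other groups high. Afp, the fetal serum protein alpha-fetoprotein (-2.50), and Akap6, an anchor of protein kinase A (-2.46), had the same order of signs, with differences of 1.16 and 1.05 in X2 cells and -1.35 and -1.41 in CCR7 cells.

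**Figure D3:**
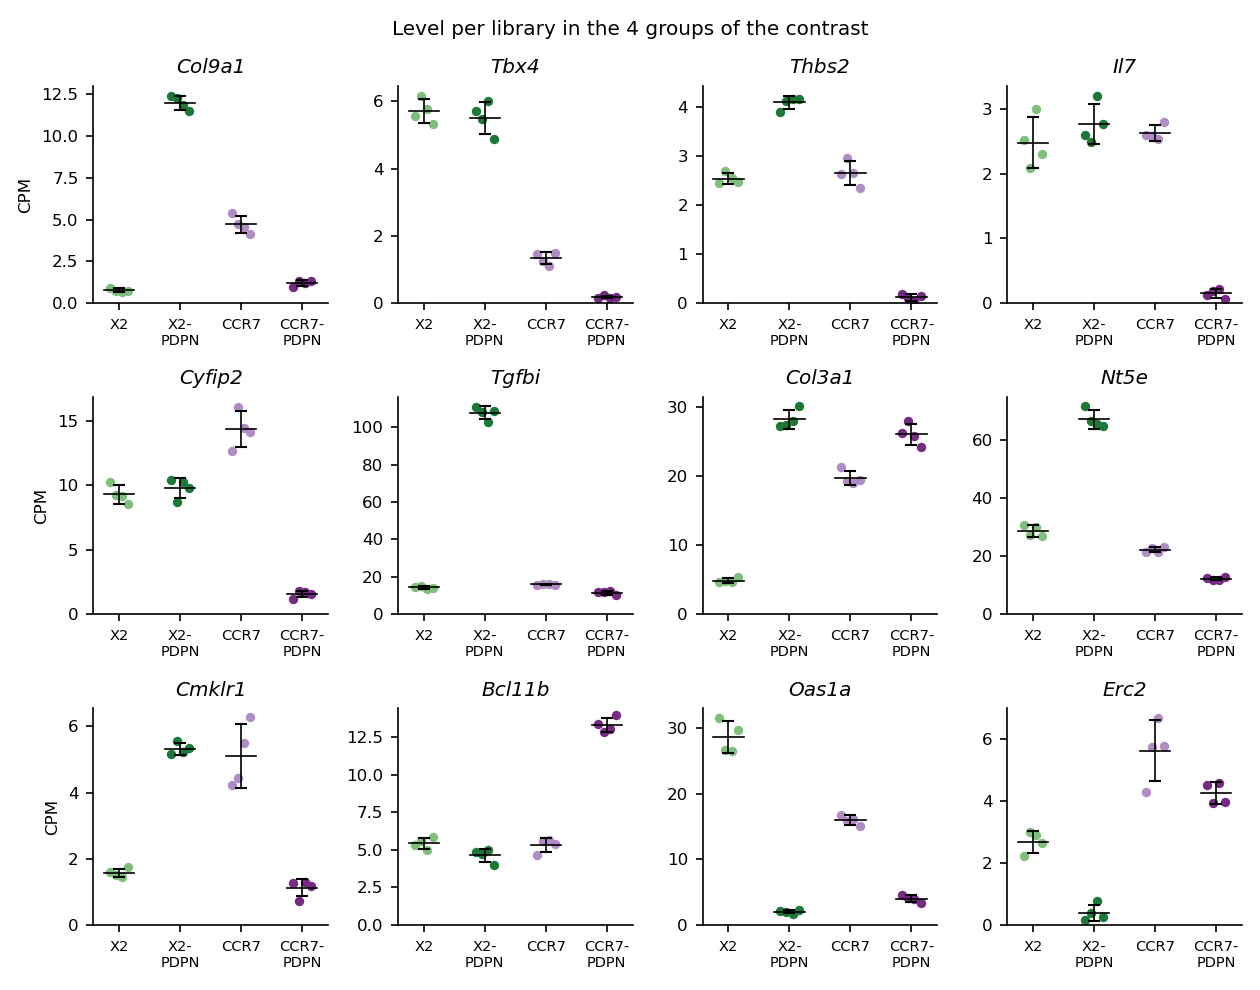
CPM of 12 genes in each library of the 4 groups of the contrast, with lines and bars for the mean and SD of 4 libraries. Col9a1 and Cmklr1 are high in X2-PDPN and in CCR7 cells, Il7, Thbs2 and Cyfip2 are low in CCR7-PDPN cells alone, and Tgfbi lies between 103 and 111 CPM in X2-PDPN cells alone.

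Fewer genes had a higher interaction. Bcl11b, a zinc finger transcription factor of T cell and epithelial development, had 12.9 to 13.9 CPM in CCR7-PDPN cells against 3.99 to 5.87 in all libraries of the other groups. Its interaction was 1.55 (standard error 0.13, adjusted p = 1.3e-12). Stard8, Shank3 and Evc also rose with PDPN in CCR7 cells alone, with interactions of 1.78, 1.65 and 1.48. Stard8 stayed low, with means of 0.199 and 0.624 CPM in CCR7 and CCR7-PDPN cells against 14.02 and 12.3 in X2 and X2-PDPN cells. Shank3 rose from 1.56 to 4.24 CPM, against 3.74 and 3.24 in X2 and X2-PDPN cells. Evc rose from 3.88 to 8.07 CPM, against 3.945 and 2.94. Among genes that fell in X2 cells alone, within the same limits, Erc2, a scaffold of the presynaptic zone, had 2.22 to 3.01 CPM in X2 and 0.164 to 0.767 in X2-PDPN cells, while CCR7 libraries with 4.31 to 6.69 CPM and CCR7-PDPN libraries with 3.95 to 4.60 CPM overlapped. Its interaction was 2.35 (standard error 0.30). Adgrg1, an adhesion receptor that binds collagen III, followed at 1.45, with 60.4 to 65.7 CPM in X2 and 19.4 to 23.9 in X2-PDPN cells.

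Collagen chains had the largest share of called members among lists with at least 15 genes tested. Of 22 collagen chains tested, 7 had a lower interaction and 0 a higher one (31.8% called, against 5.44% of all genes), and 6 of the 7 were called in both forms. The median over the 22 was -0.40, from 0.44 in X2 cells and 0.09 in CCR7 cells. Col3a1, a fibrillar collagen of soft tissue, had 4.59 to 5.38 CPM in X2, 27.3 to 30.2 in X2-PDPN, 18.9 to 21.3 in CCR7 cells and 24.2 to 27.9 in CCR7-PDPN cells. Both PDPN groups were thus high, and CCR7 cells already lay above X2 cells, which had 4.60 to 5.51 CPM in batch 1. Its interaction was -2.14 (standard error 0.09) and its differences were 2.54 and 0.40. Col24a1 (-2.22), Col15a1 (-2.04) and Col1a1 (-1.45) were also called, Col15a1 with 0.0590 and 0.291 CPM on average in CCR7-PDPN and CCR7 cells. Col6a2, with a log2 CPM averaging 7.10, rose by 0.56 in CCR7 and 1.69 in X2 cells (interaction -1.14). Col13a1 fell in both, by 2.97 in CCR7 and 1.52 in X2 cells. The 21 tested enzymes that modify and cross-link collagen had 0 calls by edgeR and by DESeq2, but 12 were at an unadjusted p under 0.05, and by the adjusted p alone 9 were lower and 3 higher.

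Other lists of the stroma were mixed. Of 28 matrix proteases and inhibitors 1, Reck, was lower (3.57% called, median -0.08, with 7 higher and 9 lower by the adjusted p alone), and of 26 integrins and laminins 1, Itgb4, was lower (3.85%, median -0.13). Both shares lay below the 5.44% of all genes. Of 30 other matrix proteins 5 were lower (16.7%), Thbs2, Tgfbi, Ltbp2 and Matn2 among them, with a median of -0.30, from 0.33 in X2 and -0.17 in CCR7 cells. Of 23 mesenchymal markers 5 were lower (21.7%). Nt5e, the ectonucleotidase CD73 that makes adenosine, had 26.9 to 30.9 CPM in X2, 64.9 to 72.0 in X2-PDPN, 21.5 to 23.1 in CCR7 cells and 11.7 to 12.8 in CCR7-PDPN cells. It rose in X2 cells without overlap and was lower in every CCR7-PDPN library than in CCR7, with an interaction of -2.09 (standard error 0.08). Acta2, smooth muscle actin, had 32.4 to 34.1 and 57.9 to 61.5 CPM in X2 and X2-PDPN cells, and 26.6 to 31.9 and 13.6 to 15.04 CPM in CCR7 and CCR7-PDPN cells. Its interaction was -1.87 (standard error 0.07). S100a4, a calcium-binding protein of motile cells, rose by 2.03 in X2 cells and was higher by 0.69 in CCR7 cells, with an interaction of -1.34. Prrx1, a mesenchymal homeobox factor, had -2.06. Its means were 13.15 and 10.81 CPM in X2 and X2-PDPN cells and 2.65 and 0.51 CPM in CCR7 and CCR7-PDPN cells. On the linear CPM scale its interaction had the other sign (0.19). Without replicate 1 of the CCR7 cells 7 collagen chains, 7 other matrix proteins and 5 mesenchymal markers were lower and 0 were higher, and of the matrix proteases and inhibitors 1 was lower and 1, Adam8, higher.

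Against 4.48% of all genes lower and 0.964% higher, 6 of 29 Wnt pathway genes were lower and 0 higher (20.7% called), with a median of -0.35, and 5 were lower without replicate 1 of the CCR7 cells. The largest were the ligand Wnt11 (-3.53), the Wnt enhancer Rspo1 (-1.96) and its receptor Lgr6 (-1.89), and Wnt6 had -1.72, all with group means under 2 CPM. Wnt6 was the member lost without that library (adjusted p = 0.077). Of 25 vessel growth factors 4 were lower and 1 higher (20% called). The lower ones were Thbs2 and Slit1, counted above, and Sema3a (-2.01) and Sema3g (-1.57), guidance factors of vessels. The higher one, Met, the receptor of hepatocyte growth factor, had 1.01, and 0.97 and so no call without replicate 1 of the CCR7 cells. Of 19 hormone and ErbB receptor genes 3 were lower (15.8%), and the call of Greb1 was lost without that library (adjusted p = 0.080) while Insr was called there. Igf2r, the receptor that clears insulin-like growth factor 2, rose from 24.3 to 25.6 CPM in X2 to 57.7 to 62.4 CPM in X2-PDPN cells and lay at 43.6 to 50.7 CPM in CCR7 and 51.0 to 54.4 CPM in CCR7-PDPN cells, without overlap in either background (interaction -1.07). Esr1, the oestrogen receptor, fell in both, by 2.96 and 1.23. Of 17 keratins and filament linkers 3 were lower (17.6%), and 2 without that library, as Krt16 was lost (adjusted p = 0.14). Plec, which ties filaments to adhesion sites, had 347 to 414 CPM in X2, 803 to 876 in X2-PDPN, 420 to 562 in CCR7 cells and 455 to 515 in CCR7-PDPN cells, the latter pair overlapping. Its interaction was -1.08, and -0.97 without replicate 2 of the CCR7 cells.

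Interferon-stimulated genes went the other way. These genes are switched on by the factor ISGF3 through the interferon-stimulated response element (ISRE), and many block virus growth. Of 81 tested, 36 were called lower with PDPN in X2 cells and 28 in CCR7 cells, against 1.69% and 2.67% of all genes. The medians of the 81 were -0.94 and -0.68. The fall was thus seen in both backgrounds and was smaller in CCR7 cells, with a median interaction of 0.30 over the list. A smaller fall need not mean a higher end level. Among all tested genes, 10 were lower in both with a higher interaction, and their median of CCR7 minus X2 was already -1.18 in batch 1. Their medians of CCR7-PDPN minus X2 were -3.17 and -3.27 in batches 1 and 2, against -3.09 for X2-PDPN minus X2. The interaction was higher for 11 members and lower for 4 (18.5% called), against 0.964% and 4.48% of all genes. Without replicate 1 of the CCR7 cells the same 11 were higher. They included Oas1a, Oas1c, Oas1g, Oas2, Oas3 and Oasl2, members of the synthetase family of the 2-5A pathway that activates RNase L. The others were Xaf1, a partner of XIAP, Irf7, the factor that amplifies type I interferon, Dhx58, an RNA sensor, Gbp7 and Rtp4.

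Oas1a (ENSMUSG00000052776, chromosome 5, 120896256 to 120907521) had 26.6 to 31.6 CPM in X2, 1.70 to 2.21 in X2-PDPN, 15.1 to 16.8 in CCR7 cells and 3.36 to 4.56 in CCR7-PDPN cells. X2 cells of batch 1 and CCR7-PDPN cells of batch 2 had 27.3 to 29.9 and 3.34 to 4.70 CPM. CCR7 cells thus lay below X2 cells and CCR7-PDPN cells above X2-PDPN cells, with no overlap between any of the 4 groups. The interaction was 1.84 (standard error 0.14, adjusted p = 2.4e-13), from -2.0 in CCR7 and -3.84 in X2 cells. Oas3 had 60.0 to 73.2, 3.53 to 5.80, 27.5 to 36.1 and 6.40 to 7.98 CPM in the same order of groups, and an interaction of 1.59 (standard error 0.20). Dhx58 stood at 23.3 to 27.5 CPM in X2, 7.67 to 8.60 in X2-PDPN, 9.04 to 14.4 in CCR7 cells and 7.90 to 9.80 in CCR7-PDPN cells, the latter pair overlapping, with an interaction of 1.26. The Oas1 genes are near-identical copies, so that reads may be split among them and their single values are uncertain.

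The 4 members with a lower interaction, close to the share of all genes (4.48%), were Cxcl10, Ly6e, Ifit3 and Ifitm1. Cxcl10, a chemokine for activated T cells, had 2.26 to 2.64 CPM in X2, 5.71 to 7.02 in X2-PDPN, 1.69 to 3.07 in CCR7 cells and 1.19 to 1.67 in CCR7-PDPN cells, an interaction of -2.06 (standard error 0.20). It rose with PDPN in X2 cells, unlike the Oas genes. Ly6e, a cell surface protein that limits virus entry, fell by 1.80 in CCR7 cells and by 0.46 in X2 cells. Ifit3 and Ifitm1 each had a group with 3 counts or fewer in every library, and their rearranged forms of -1.36 and -1.3 were not past the threshold. The call of Ifitm1 was lost without any 1 of 11 libraries in turn, replicate 1 of the CCR7 cells among them (adjusted p = 0.12). The 21 genes of MHC class I and peptide loading had 0 calls by edgeR and by DESeq2 in the interaction. Of these 15 were at an unadjusted p under 0.05, by the adjusted p alone 14 were higher and 1 lower, and the median was 0.30.

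The letters of the ISRE, GAAANNGAAA on either strand, were looked for in the 250 bases before the start of genes in the RefSeq promoter table of GRCm38.p6, which held 9753 of the tested genes, some with several starts. They were found for 297 genes (3.05%), for 25 of the 63 interferon-stimulated genes with an entry (39.7%), for 8 of the 80 genes with a higher interaction (10%) and for 12 of the 383 with a lower one (3.13%). Of the 11 members with a higher interaction 8 had an entry and 5 held the letters. Of the members with a lower interaction and an entry, 2 held the letters and 1 did not, so the letters were found on both sides. The 5 windows of the higher side are shown because their genes carry the interferon result. They run 5′ to 3′ on the strand of the gene with the first match in capitals, which reads TTTC first where it lies on the other strand. A further match that overlaps the first was left in lower case, as in the windows of Oas1a, Oas1g and Oas1c. Among interferon-stimulated genes with the letters the median interaction was 0.30 (n = 25) and without them 0.17 (n = 38), a description and not a test. In order, they lie at chr5:120907526-120907575 (minus strand), chr5:120887614-120887661 (minus), chr5:120812589-120812658 (minus), chr5:120777695-120777764 (minus) and chr3:142530253-142530322 (plus).
Oas1a: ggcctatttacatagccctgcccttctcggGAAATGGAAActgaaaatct
Oas1g: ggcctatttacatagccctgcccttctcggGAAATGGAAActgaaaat
Oas1c: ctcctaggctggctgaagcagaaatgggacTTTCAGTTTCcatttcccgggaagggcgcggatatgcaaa
Oas3: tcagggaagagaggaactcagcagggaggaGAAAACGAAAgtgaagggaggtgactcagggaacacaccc
Gbp7: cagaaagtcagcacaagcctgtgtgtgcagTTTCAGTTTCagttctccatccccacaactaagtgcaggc
The windows of Oas1a and Oas1g share their letters over the shorter one. The T-box letters AGGTGTGA, searched in the same way, were found for 81 of the 9753 genes (0.831%), for 3 of the 383 genes with a lower interaction (0.783%) and for 1 of the 101 genes with an entry that fell with PDPN in CCR7 cells alone (0.99%).

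**Figure D4:**
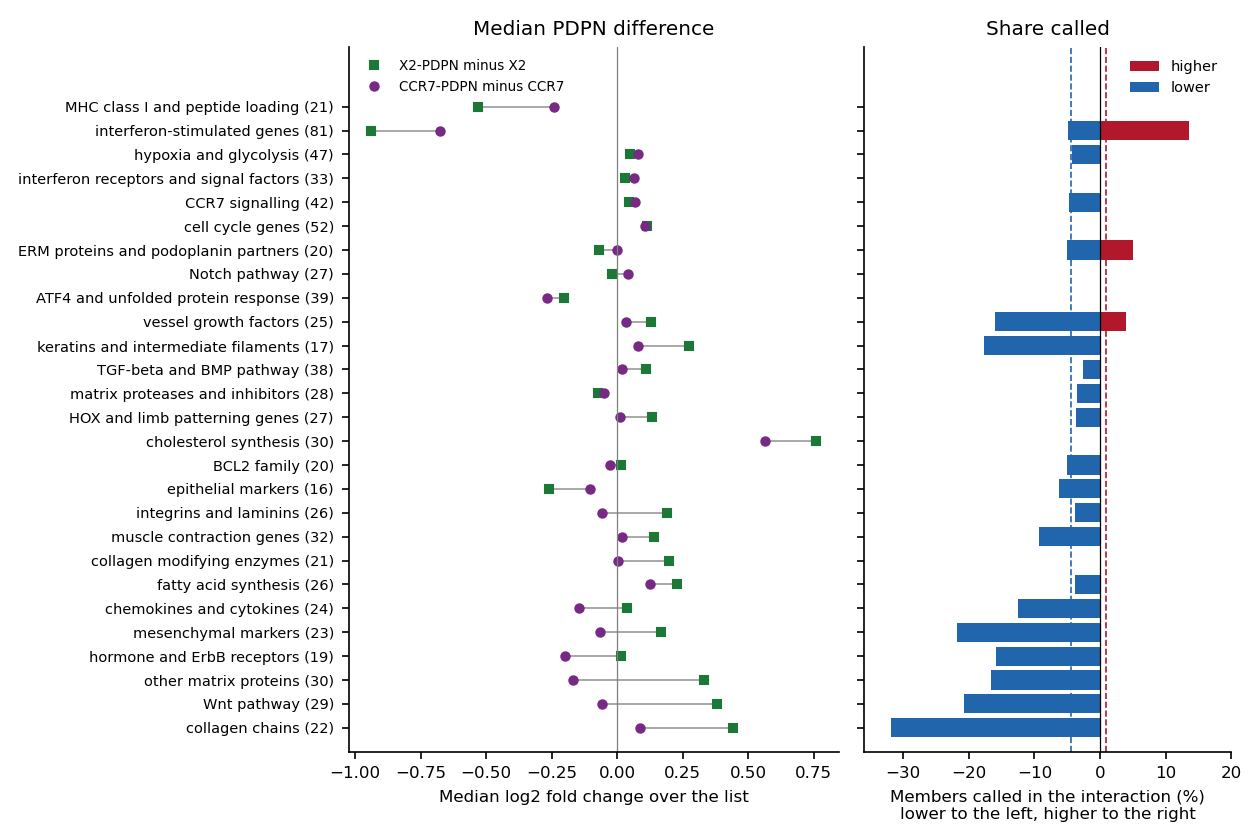
Left, median log2 PDPN difference over each list with at least 15 genes tested (number in brackets) in X2 cells (green squares) and CCR7 cells (purple circles). Right, share of members with a higher (red) or lower (blue) interaction, with dashed lines at the shares of all genes, 0.964% and 4.48%. Collagen chains have the largest lower share at 31.8%, and interferon-stimulated genes are the list with 11 members higher.

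Several of the other lists had few or no interaction calls. The 30 cholesterol synthesis genes had medians of 0.56 in CCR7 and 0.76 in X2 cells and 0 interaction calls by edgeR and by DESeq2, while 17 were at an unadjusted p under 0.05 and the adjusted p alone gave 4 higher and 12 lower. The 52 cell cycle genes had medians of 0.11 and 0.12, with 0 calls by both tools, 32 genes at an unadjusted p under 0.05, and 12 higher and 17 lower by the adjusted p alone. FGF ligands and receptors (14 genes), Notch pathway genes (27), interferon receptors and signal factors (33) and genes of ATF4 and the unfolded protein response (39) also had 0 calls by both tools, with 8, 14, 16 and 20 genes at an unadjusted p under 0.05. Of 47 hypoxia and glycolysis genes 2 were lower (4.26%, close to the 4.48% of all genes lower), both carbonic anhydrases. Car9 had 1.70 to 2.31 CPM in X2 and 7.45 to 9.89 in X2-PDPN cells, against 2.76 to 3.32 and 4.85 to 5.80 CPM in CCR7 and CCR7-PDPN cells, an interaction of -1.37, and Car12 was lower in CCR7-PDPN cells (-1.74) with an interaction of -1.32. Of 24 chemokines and cytokines 3 were lower (12.5%, above the 5.44% of all genes), Il7 and Cxcl10 as above and Cx3cl1, a membrane-bound chemokine (-1.10). Of 42 CCR7 signalling genes 2 were lower (4.76%, also close to the share of all genes), Arrb1, the adaptor beta-arrestin 1 (-1.65), and Gng11 (-2.40).

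Markers of other cell types were looked at in the same contrast, in which 4.48% of all genes tested were lower and 0.964% higher. Of 9 fibroblast markers tested of 20 listed, 4 had a lower interaction (Pi16, Prrx1, Ly6a and Col1a1). The summed level of all 9 was 1660 to 1690 CPM in X2, 1840 to 1940 in X2-PDPN, 1460 to 1490 in CCR7 cells and 1550 to 1610 in CCR7-PDPN cells. The 4 called ones averaged a log2 CPM of 0.51 to 1.87, so nearly all of this sum came from markers that were not called. Of 6 immune markers tested of 31 listed, 3 were lower (S100a8, Cd79a and Lyz2). The sums over all 6 were 55.8 to 61.1, 31.4 to 36.8, 19.9 to 26.3 and 14.3 to 16.6 CPM in the same order. The 3 called ones averaged a log2 CPM of only -0.76, 0.68 and 1.39, so the sums do not describe them. Of 5 endothelial and lymphatic markers tested of 20 listed 1, Cdh5, was higher, with group means under 0.4 CPM and a call that was lost without any 1 of 8 libraries. S100a8 was lost without replicate 1 of the CCR7 cells (adjusted p = 0.052). Pecam1 had 4 to 18 counts and Lyve1 7 to 20 counts in a library. The fibroblast sum was highest in X2-PDPN cells, as were Tgfbi and Col9a1, while the immune sum was lower with PDPN in both backgrounds and the endothelial sums of the groups overlapped, between 1.78 and 3.03 CPM. The part of these markers in the matrix result was not tested. All libraries came from cultured derivatives of the EO771 line and not from tissue. In bulk RNA of such cultures, a smaller share of cells with a marker and less of its RNA per cell cannot be told apart.

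The interaction also varied with position in the genome. Median values by chromosome ran from -0.20 on chromosome 15 to 0.23 on chromosome 8, with 0.15 on chromosome 12, 0.12 on chromosome 6 and -0.11 on chromosome 9. On chromosome 8 the PDPN difference had a median of -0.20 in X2 cells and 0.02 in CCR7 cells, and on chromosome 15 of 0.21 and -0.01, so that both medians lay farther from 0 in X2 cells. Of 253 windows of 10 Mb with at least 10 genes, 20 had a median above 0.2 and 11 below -0.2, while the largest absolute window median of the batch check was 0.0636. With the window median subtracted, 126 genes were higher and 592 lower. Long transcripts also leaned to the lower side. Among the 9151 genes, the 1797 with more than 8000 exonic bases had a median interaction of -0.08 with 37 lower and 1 higher, and the 1774 with 1500 to 3000 bases had 0.07 with 10 lower and 1 higher. The part of copy number and of transcript length in the called genes was not tested.

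**Figure D5:**
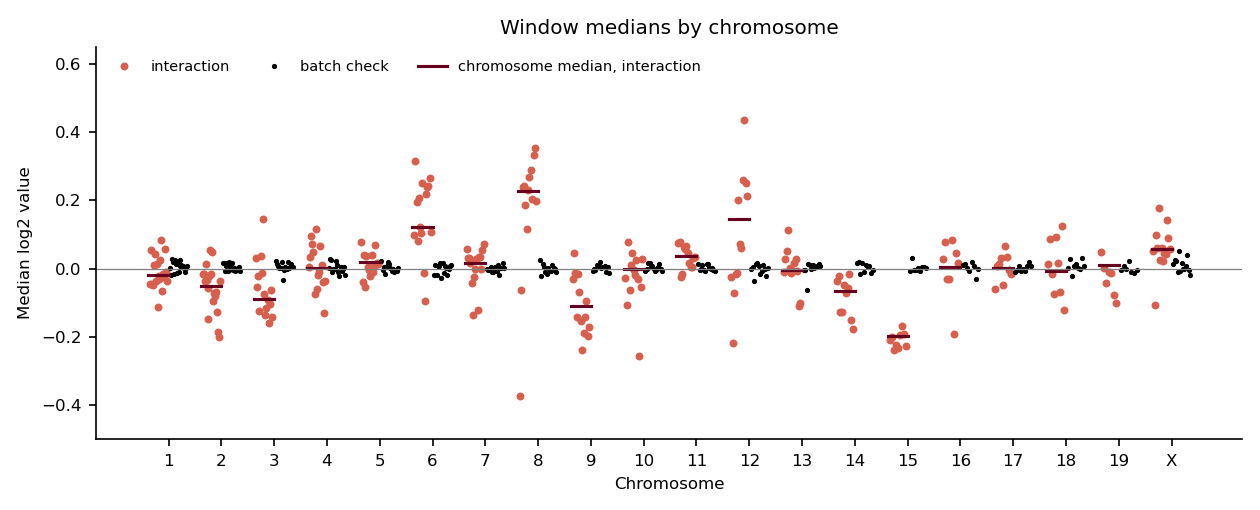
Median log2 value of the interaction (red) and of the batch check (black) in windows of 10 Mb with at least 10 genes, grouped by chromosome (horizontal axis), with bars for the median interaction of each chromosome. Windows of chromosome 8 lie mostly above 0 and those of chromosome 15 below 0, while the batch check stays within 0.0636 of 0.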

How the data were processed

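Polyadenylated RNA of EO771 derivatives was sequenced from stranded libraries as single-end reads of 75 bases. The authors mapped them to GRCm38 (mm10) and deposited raw counts per Ensembl gene, 1 table per batch, not normalized or pooled. The aligner is not given in the sources used here. The batch 1 table held 55471 genes while that of batch 2 held 13915, all present in batch 1, none with a highest count below 10. Coordinates are those of the files and of GENCODE M21.

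The 24 libraries were fitted together in edgeR 4.0.16 (R 4.3.3) with TMM factors, filterByExpr and robust quasi-likelihood tests over 6 groups, with Benjamini-Hochberg adjustment over 13690 genes. Standard errors are the absolute log2 value over the square root of F. CPM used TMM-scaled totals. Medians of lists were described without a test. On simulated counts over 13300 genes, the test called 198 of 200 genes with an interaction of 1.58 with the right sign, beside 1 gene without one. The changed genes were chosen above a limit on expected counts, and no difference between batches was simulated. These rates therefore do not carry over to genes with few counts or to a batch difference.

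Named genes were Pdpn, Ccr7, Tbx4, Col9a1, the 4 largest interactions of each class of calls with a log2 CPM averaging 1 or more, called in both forms and with over 3 counts in each group, the 4 largest called members of each list, and the 3 largest batch checks. The genes Irf7, Ly6e, Oas1c, Oas1g, Oasl2, Gbp7 and Rtp4, and Met, Insr, Adam8, Col6a2 and Col13a1, were named after their values were seen. The contrast, the markers and the 33 lists were chosen with earlier results of these data known. Replicate numbers did not pair the groups, with correlations of same-numbered libraries within a batch of -0.313 to 0.328. Counting intervals were not used. Where a library had 0 counts, up to 3 counts stay possible. Alternatives were upper-quartile and RLE factors, DESeq2 1.42.0, other thresholds and filters on low counts, a replicate block, an additive batch term, the 16 libraries alone and each library left out.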

Additional observations from a re-analysis of the deposited data

Results flagged for a closer look

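The test of the interaction itself flagged 132 genes with a higher and 613 with a lower PDPN difference in CCR7 cells than in X2 cells. Libraries far from the other 3 of their group were looked for in 324 group values of the 81 named genes, and chance flags about 1 in 20 such groups. In CCR7 cells the far libraries had 28.3 CPM for Adgrg1, 0.452 for Myl9, 0.226 for Gng11 and 50.7 for Igf2r. In CCR7-PDPN cells they had 3.58 CPM for Shank3, 0.773 for Aig1, 7.90 for Dhx58, 0.0339 for Sel1l3, 0.0316 for Ifit3 and 0.418 for Ifitm1. In X2-PDPN cells they had 2.63 CPM for Shank3 and 3.91 for Thbs2. In X2 cells of batch 2 they had 0.926 CPM for Col9a1, 4.96 for Aig1, 0.0370 for Sel1l3 and 0.0370 for Thrsp. Those of Sel1l3, Ifit3 and Thrsp are single reads or the like.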

How the results depend on the processing

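DESeq2, RLE and upper-quartile factors, no filter on low counts, the 16 libraries alone, the additive batch term, the CCR7 form and the 10 Mb window medians kept the 4 counts of PDPN differences and both interaction counts, where they gave them, within 1.5 times. The fit with a replicate block gave 127 higher and 597 lower. Without a fold threshold the interaction had 2782 higher and 2803 lower, CCR7-PDPN against CCR7 3047 and 3061, and X2-PDPN against X2 3562 and 3774. With a log2 threshold of 2 these were 26 and 184, 14 and 105, and 89 and 72. With at least 50 counts in 4 libraries, so fewer genes tested, they were 63 and 317, 41 and 195, and 233 and 125. Leaving out each library in turn gave 124 to 144 higher and 594 to 643 lower for the interaction, 94 to 130 and 346 to 384 in CCR7 cells, and 503 to 540 and 233 to 259 in X2 cells. The batch check stayed at 0 in every such fit. For the named genes 2689 alternative values kept the call and 47 lost it, with 0 reversed. Ifitm1, Krt16 and Cdh5 lost it most often. Of the list medians, 12 moved by more than the spread. Depth limits genes with a group near 3 counts, 44 of the 745, whose log2 sizes depend on the prior count.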
